A study of Mus musculus with 4 samples.

Results

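Leptin receptor reporter cells sorted from the mouse hypothalamus included endothelial cells with very high Lcn2 and Ackr1, and 74 of the 76 such wells lay on 1 of 4 plates. The wells were chosen by their own transcript levels, expressed per 10000 counts outside spike-ins and mitochondrial genes. Of 1536 wells, 1298 held at least 1000 such counts. A well counted as endothelial when the summed neuron genes Snap25, Syt1, Stmn2, Tubb3 and Rbfox3 were under 12, and when the summed endothelial genes Cldn5, Flt1, Pecam1, Kdr and Egfl7 reached 15 and exceeded the sum of the fibroblast genes Col1a1, Col1a2, Slc6a13 and Lum. This gave 189 endothelial wells, and the 76 in which Lcn2 plus Ackr1 reached 20 are described here, beside the 113 below 20. In the study, single cells of C57BL/6 mice carrying Lepr-cre and Rosa-LSL-tdTomato went into 384-well plates and were sequenced by CEL-seq2, which tags the 3' ends of transcripts with molecular identifiers. The series has 3 fed replicates, numbered 1 to 3, and 1 fasted replicate taken after 24 h without food. All 4 carry the same alleles, so no group lacks the reporter. In such mice tdTomato marks any cell in which the Lepr promoter drove Cre at some time, whether or not it still makes Lepr. How many animals gave each plate is not stated.

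Endothelial cells line the blood vessels, and in the brain they form tight junctions and carry nutrients across the barrier between blood and tissue. Along a vessel they differ as arterial, capillary and venous cells, and venules behind the capillaries are where leukocytes attach and leave the blood. ACKR1 is an atypical chemokine receptor of venular endothelium that binds inflammatory chemokines, and LCN2 (lipocalin 2) is a secreted acute-phase protein that binds iron-loaded bacterial siderophores. On mm10 (GENCODE vM21), Lcn2 lies at chr2:32384633-32388252 and Ackr1 at chr1:173331886-173333750, both on the minus strand.

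On fed replicate 1, 74 of 115 endothelial wells reached 20, a share of 64.3% (exact 95% interval 54.9 to 73.1). The share was 0 of 24 on fed replicate 2, 2 of 30 on fed replicate 3 and 0 of 20 on the fasted replicate. For the 2 shares of 0 the exact upper limits are 14.2 and 16.8%, and a floor of 3 wells gives 12.5 and 15%. Endothelial wells as a whole made up 32.3% of the 356 wells kept on fed replicate 1, against 7.29, 8.88 and 7.27% on fed replicates 2 and 3 and the fasted replicate. These intervals, and all below, cover counting error in these libraries only. The plate and anything that came with it cannot be told apart from the state of the cells on it, and with 3 fed replicates and 1 fasted one an exact permutation test cannot go below p = 0.25.

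The 2 wells of fed replicate 3 were shallow, and they differed from the other 74 in mitochondrial share, which was at most 15.9% there. They held 1105 and 1133 counts and mitochondrial shares of 28.6 and 35.3%, and each reached 20 through 3 Ackr1 counts with 0 or 1 count of Lcn2. In contrast, the sum of Lcn2 and Ackr1 in the 74 wells of fed replicate 1 ran from 20.8 to 304 with a median of 141. The 5 wells just inside the threshold there stood at 20.8, 23.2, 27.4, 29.2 and 35.0, and the 5 just outside it at 12.2, 13.3, 13.5, 14.3 and 17.7. The wells at 20.8 and 27.4 were shallow too, with 1923 and 1093 counts. Each reached 20 through 3 Lcn2 counts, with 1 and 0 counts of Ackr1. Lcn2 by itself reached 20 in 71 of the 74 wells, and in 65 of these Ackr1 by itself did so too. In 3 wells neither gene reached 20 by itself. The values below are therefore those of the 74 wells of fed replicate 1, with no well of another replicate.

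**Figure D1:**
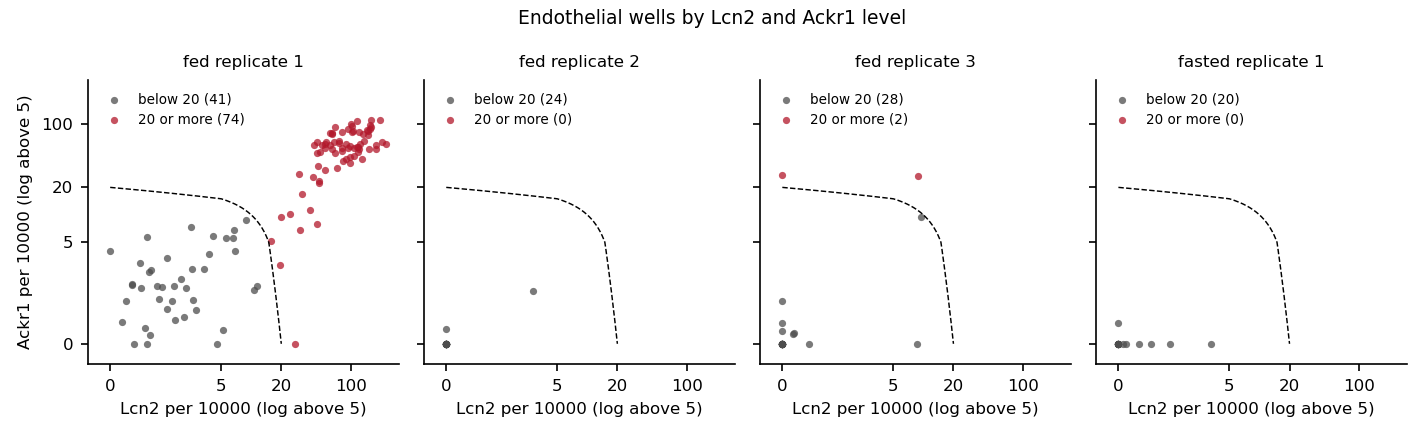
Lcn2 against Ackr1 in each endothelial well, in counts per 10000 on axes that are linear up to 5 and logarithmic above, with 1 panel per replicate. The dashed line marks a sum of 20, above which lie the 74 red wells of fed replicate 1 and 2 of fed replicate 3.

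Apart from these genes, the 74 wells resembled the 41 endothelial wells below 20 of the same plate in quality. Their median depth was 15859.9 counts against 13699.7, with ranges of 1093 to 34715 and 1791 to 23641. Median mitochondrial shares were 4.68 and 4.88%, and spike-ins took 11.6 and 11.8% of counts. Transcripts of Y-linked genes without Xist, the transcript of the silenced X chromosome, were found in 67 of the 74 wells and in 36 of the 41, against 2 of 24, 6 of 28 and 0 of 20 endothelial wells below 20 on fed replicates 2 and 3 and the fasted replicate. Xist without Y-linked transcripts was found in 0 of the 74 and 0 of the 41, against 14, 15 and 15 of those wells, so plate, sex and the state of the cells cannot be told apart. Barcode numbers, a set of 384 that recurs on all 4 plates, were split into 4 blocks of 96. In these blocks the 74 wells numbered 1, 33, 29 and 11 and the 41 wells 8, 13, 12 and 8. The other kept wells of fed replicate 1 numbered 78, 48, 50 and 65, so the 74 wells were nearly absent from the first block. All of 13 general endothelial genes, Cldn5 and Pecam1 among them, were detected, at a summed median of 146 per 10000 against 213. Lepr itself, the gene whose promoter drives the reporter, was seen in 15 of 74 wells at 0.182 per 10000, against 0.0992 in the wells below 20, with counting intervals that overlap.

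The 2 genes of the rule and the 3 further markers stood as follows, as lowest, median and highest value per well on fed replicate 1. Lcn2, the siderophore binder, ran from 15.6 to 226 with a median of 82.9 in the 74 wells, against 0 to 11.4 with a median of 2.87 below 20. Ackr1, the chemokine receptor, ran from 0 to 110.3 with a median of 56 in the 74 wells, against 0 to 8.85 with a median of 2.86 below 20. These 2 genes set the groups, so their separation is given by the choice of wells. Lrg1, a secreted glycoprotein made in the acute phase, ran from 0 to 45.7 with a median of 15.3 in the 74 wells, against 0 to 5.58 with a median of 0.528 below 20. Ptgs2, cyclooxygenase 2 of prostaglandin synthesis, ran from 0 to 61.9 with a median of 12 in the 74 wells, against 0 to 16.3 with a median of 0.846 below 20. Vwf, the adhesive glycoprotein of endothelial storage granules, ran from 0 to 75.2 with a median of 30.2 in the 74 wells, against 0 to 27 with a median of 5.53 below 20. Lrg1, Ptgs2 and Vwf each overlapped between the groups well by well, since some of the 74 wells had none.

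Summed over wells, Lrg1 stood at 18.2 against 0.496 per 10000 and was 36.7-fold (95% interval 24.8 to 56.9) higher. Ptgs2 was 8.81-fold (95% interval 7.15 to 11) higher, at 16.1 against 1.83, and Vwf 3.53-fold (95% interval 3.2 to 3.89) higher, at 33 against 9.36. In the endothelial wells below 20 of fed replicates 2 and 3 and the fasted replicate, Lrg1 stood at 0, 0.0439 and 0.161. Vwf was present on every plate, at 2.12, 7.71 and 11.7 in the same order, and Ptgs2 at 0.151, 0.791 and 1.54. Vwf was thus found in endothelial wells of every plate, while Lrg1 was close to 0 in endothelial wells of the other plates. On fed replicate 1 the other marker classes of 10 or more wells held Lrg1 at 0.597 to 0.898, so its level below 20 was no higher than in wells of other types.

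**Figure D2:**
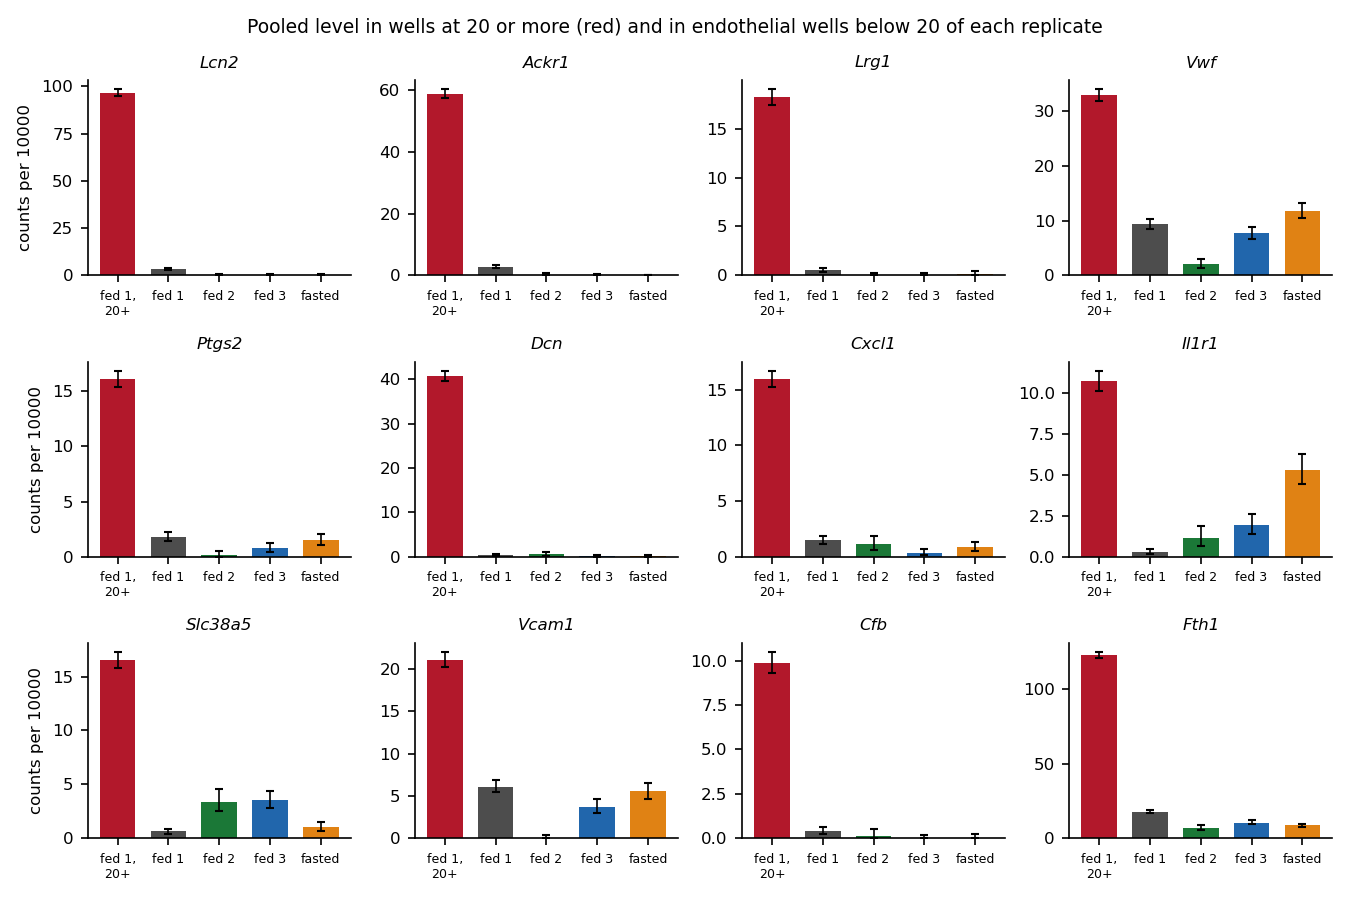
Pooled level of 12 genes, in counts per 10000, in the 74 wells at 20 or more of fed replicate 1 (red) and in the endothelial wells below 20 of fed replicates 1 to 3 and the fasted replicate (41, 24, 28 and 20 wells), with exact 95% Poisson intervals. Lrg1 and Cfb lie under 0.5 in each group below 20, while Vwf lies between 2.12 and 11.7.

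Over all 5180 genes at 0.5 per 10000 or more in either group, 429 (8.28%) were at least 2-fold higher in the 74 wells than in the 41 wells below 20, and 507 (9.79%) at least 2-fold lower, around a median log2 ratio of -0.01. These counts use the contrast that chose the wells and come from 1 replicate, so they carry no test. The wells below 20 of fed replicate 1 lean towards arterial and mural RNA, with values given further on, and those of the other 3 replicates serve as a second comparison, which differs in plate and in the share of wells with Xist. Against those 72 wells, 367 of 5272 genes (6.96%) were at least 2-fold higher and 537 (10.2%) at least 2-fold lower. Of the 429 genes higher within fed replicate 1, 240 (55.9%) were also at least 2-fold higher against the other replicates. The 25 genes with the highest ratios and the 5 markers, which are 27 genes together, were each at least 2-fold higher than in the endothelial wells below 20 of every replicate taken singly. Of these 27, Lcn2 and Ackr1 are held low below 20 by the rule and 25 were picked as high in the same 74 wells, so the count follows largely from the choice. Both comparisons share the 74 wells.

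Of genes at 1 or more per 10000 and seen in 30% of wells, Dcn had the highest ratio, 108-fold (95% interval 69.1 to 179.7). It encodes decorin, a matrix proteoglycan best known from fibroblasts. Dcn ran from 0 to 147 with a median of 20.5 per well and was seen in 64 of the 74 wells, against a highest value of 5.72 in the wells below 20. Its pooled level of 40.8 was close to that of the 30 wells with fibroblast markers on the same plate, at 41.3. Of 10 listed fibroblast genes 3 had a level, of which Dcn was at least 2-fold higher, Col1a2 lower and 1 between. Col1a1, Col1a2, Col3a1 and Pdgfra were nearly absent, of which the rule itself caps Col1a1 and Col1a2 but not the others. These 4, genes of collagen chains and of a growth factor receptor, stood at 0.104, 0.156, 0.0692 and 0.0173 per 10000. Col1a2 stood at 31.7 in the fibroblast-marker wells.

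Genes that capture leukocytes from the blood formed the next group. Selp and Sele encode the selectins on which leukocytes roll, and Icam1 and Vcam1 the receptors to which their integrins bind. Selp stood at 3.89 against 0.0595 per 10000, a ratio of 65.4 that rests on 3 counts below 20 (95% interval 22.2 to 318), and was seen in 64 of 74 wells against 3 of 41, with a median of 2.5 and a highest value of 21.6 per well. Sele stood at 3.28 against 0.0595 and was seen in 54 wells against 3. In the endothelial wells of the other replicates Sele was at 0 throughout and Selp at 0, 0.0878 and 0. Icam1 was 9.17-fold (95% interval 6.75 to 12.8) higher, at 7.83 against 0.854, and Vcam1 3.46-fold (95% interval 3.07 to 3.9) higher, at 21.1 against 6.11. The constitutive adhesion and junction genes of the list did not share this. Icam2, Cd34, Esam and F11r lay between 0.998 and 1.21 times their level below 20, and Pecam1, Cdh5, Jam2 and Podxl below 1. In all, 6 of 15 leukocyte adhesion genes with a level were at least 2-fold higher, Ackr1 among them, and 0 lower. Their median log2 ratio was 0.21. Over all 5180 genes, 8.28% were higher and 9.79% lower.

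Acute-phase genes and those of interleukin 6 family signalling were high in the same wells. Of 18 such genes with a level, 14 were at least 2-fold higher and 1 (Junb) lower, with a median log2 ratio of 1.98, and against the other replicates 14 of 19 were higher with a median of 1.85. Over all genes, 8.28% were higher and 9.79% lower within fed replicate 1, and 6.96% higher against the other replicates. The acute-phase list includes Lcn2, which the rule used. Receptor genes were among them. Il1r1, the signalling receptor for interleukin 1, stood at 10.7 against 0.278, 38.6-fold (95% interval 22.9 to 70.8) higher. Its level in endothelial wells of the other replicates was 1.14, 1.93 and 5.3, so that its ratio to the other 3 replicates together, at 1.78 on the log2 scale, was far below the 5.27 within fed replicate 1. Il6st, which encodes the shared receptor chain gp130, stood at 10 against 3.04, Il6ra at 3.91 against 0.635 and Osmr, the oncostatin M receptor chain, at 2.68 against 1.27. The transcription factor genes Cebpd and Cebpb stood at 8.59 against 1.93 and 2.54 against 0.596, and Bcl3, a nuclear partner of NF-kB, at 1.52 against 0.337.

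Feedback and core genes of the same pathway were nearer to the wells below 20. Socs3, an inhibitor induced by STAT3, stood at 1.25 against 1.11 per 10000 (1.13 times, 0.824 to 1.57), with 3.04, 1.23 and 1.01 in endothelial wells of the other replicates. With wells holding pericyte RNA left out its log2 ratio went from 0.17 to 0.90. Stat3 itself stood at 3.84 against 3.34. Among the other listed genes, Ch25h, the enzyme that makes 25-hydroxycholesterol, was at 16.1 against 1.65, ceruloplasmin (Cp) at 16.4 against 5.76 and Serpina3n at 1.23 against 0.337. The liver acute-phase genes Orm1, Orm2 and Fgg had no count in either group, and Saa3 and Hp had counts in 1 well each.

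Targets of NF-kB, the transcription factor downstream of interleukin 1 and tumour necrosis factor receptors, gave a similar count. Of 18 with a level, 12 were at least 2-fold higher and 0 lower, with a median log2 ratio of 1.72. Against the other replicates 14 of 18 were higher. The shares of all genes were 8.28% higher and 9.79% lower, and 6.96% higher against the other replicates. Cxcl1, a neutrophil chemokine, ran from 0 to 52.6 with a median of 12.1 per well and was 10.6-fold (95% interval 8.4 to 13.5) higher, at 16 against 1.51. The inhibitors that NF-kB induces were high too, with Nfkbia at 34.9 against 10.8 and Tnfaip3 at 3.49 against 0.496. Cd14, a co-receptor for bacterial lipopolysaccharide, stood at 7.46 against 0.159, and Csf1, the growth factor of macrophages, at 5.43 against 1.35. Other chemokines were scarce. Ccl2, Cxcl10 and Cxcl11 stood at 0.121, 0.104 and 0.208, with no count in the wells below 20, and Cxcl2 at 0.442 against 0.358 with 45.2% of its counts in the 74 wells from 1 well.

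Promoter windows of 4 high genes are printed because these genes belong to the adhesion and complement groups and their windows hold matches to short motifs of factors named here. Sequences are from RefSeq on GRCm38.p6, 5' to 3', and give the 250 bases before the annotated start. Capitals mark matches on either strand to GGAANNNCC (NF-kB), TTCNNNGAA (STAT) or TTGCNNAA (C/EBP).
Sele (chr1:164047984-164048233, + strand): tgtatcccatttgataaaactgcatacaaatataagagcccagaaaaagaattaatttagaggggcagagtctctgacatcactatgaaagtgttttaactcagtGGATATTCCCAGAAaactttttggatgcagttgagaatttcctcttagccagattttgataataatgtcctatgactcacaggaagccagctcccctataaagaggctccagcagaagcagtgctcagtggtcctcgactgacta
Selp (chr1:164115014-164115263, + strand): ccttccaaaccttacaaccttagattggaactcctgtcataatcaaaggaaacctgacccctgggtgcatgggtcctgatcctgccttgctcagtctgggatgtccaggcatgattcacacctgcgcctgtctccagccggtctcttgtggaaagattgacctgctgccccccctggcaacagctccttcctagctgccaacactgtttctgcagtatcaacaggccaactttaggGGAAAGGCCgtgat
C3 (chr17:57228137-57228386, - strand): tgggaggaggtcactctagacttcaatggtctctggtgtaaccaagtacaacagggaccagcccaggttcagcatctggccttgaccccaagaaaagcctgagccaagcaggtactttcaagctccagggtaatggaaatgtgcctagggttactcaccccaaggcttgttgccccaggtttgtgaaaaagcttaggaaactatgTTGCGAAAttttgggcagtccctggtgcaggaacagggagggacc
C1s1 (chr6:124542360-124542609, - strand): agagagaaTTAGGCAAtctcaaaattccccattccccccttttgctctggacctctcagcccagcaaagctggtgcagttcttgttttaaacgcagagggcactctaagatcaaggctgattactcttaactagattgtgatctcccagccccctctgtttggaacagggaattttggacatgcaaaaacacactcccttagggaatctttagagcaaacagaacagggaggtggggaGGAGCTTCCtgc
In Sele the capitals join GGATATTCC, an NF-kB match, with the overlapping STAT match TTCCCAGAA. Selp holds the NF-kB match GGAAAGGCC, C3 the C/EBP match TTGCGAAA, and C1s1 the C/EBP match TTAGGCAA and the NF-kB match GGAGCTTCC. Of 27 markers and highest-ratio genes, 18 were found by symbol, with 20 windows of the same length as those of all genes, which reach past the start. NF-kB matches lay in 9 of the 20, STAT in 2 and C/EBP in 7, against 18.5%, 8.3% and 10.8% of all 32851 windows. The 2 windows of C1s1 overlap and hold the same NF-kB match, and by gene the matches lay in 8, 2 and 7 of the 18. A match describes letters only and shows no binding.

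Prostaglandin E2 made by brain endothelium is a known messenger of fever, and its synthesis takes several steps. Phospholipase A2 (Pla2g4a), which frees arachidonic acid, stood at 5.93 against 2.58 per 10000. Ptgs2, which follows, is given above, and Ptges, the last enzyme, stood at 0.502 against 0.0595, in 38 of 74 wells against 3 of 41. The transporter gene Slco2a1 stood at 0.753 against 0.278. Ptgs1, the constitutive cyclooxygenase, was scarce at 0.0433 against 0.0992, and the ratio of Ptges3 was near 1, at 0.96 against 0.953. In all, 4 of 7 genes with a level were at least 2-fold higher and 0 lower, with a median log2 ratio of 1.20. Beside this, 8.28% of all genes were higher and 9.79% lower. Against the other 3 replicates 3 of 8 were higher and 1 lower, with a median of 0.46. There, 6.96% of all genes were higher and 10.2% lower.

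Complement genes, whose products tag and lyse microbes, had a median log2 ratio of 3.31. Of 9 genes, 7 were at least 2-fold higher and 0 lower, beside 8.28% and 9.79% of all genes. C3, the central component, was seen in 45 of 74 wells at 2.54 per 10000 and had no count in the 41 wells below 20, so it was at least 42.6-fold higher against a floor of 3 counts over that group. Cfb, the protease of the alternative pathway, stood at 9.87 against 0.417 and was seen in 72 wells against 13. Gm20547, which overlaps Cfb on chromosome 17, had nearly the same counts and cannot be told apart from it. The classical pathway proteases C1s1 and C1ra stood at 8.79 against 0.357 and 3.93 against 0.397. Inhibitors were high as well, with Serping1 at 3.42 against 0.893 and Cd55 at 1.7 against 0.0794. In endothelial wells of the other replicates Cfb stood at 0.151, 0 and 0.0403.

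Among iron-handling genes, the ferritin heavy chain was high, and the uptake receptor depended on the comparison. Fth1, the heavy chain of ferritin, which stores iron, ran from 18.3 to 249 with a median of 110.4 per well, against a highest value of 58.4 below 20. It was 6.87-fold (95% interval 6.42 to 7.36) higher, at 123 against 17.9, with 7.2, 10.6 and 8.65 in the other replicates. The light chain Ftl1 stood at 4.59 against 3.12. Steap4, a metal reductase, stood at 6.64 against 0.139 and the iron transporter Slc11a2 at 0.787 against 0.198. Tfrc, the transferrin receptor, stood at 1.64 against 0.774, but at 5.77, 6.11 and 5.98 in endothelial wells of the other replicates, so that its direction depends on the wells it is set beside. Of 10 genes with a level, 7 were at least 2-fold higher, Lcn2 among them, and 0 lower, beside 8.28% and 9.79% of all genes. Against the other 3 replicates 5 were higher and 3 lower, beside 6.96% and 10.2% of all genes.

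The other genes among the 25 highest ratios fell outside one pathway. Timp4, an inhibitor of matrix proteases, stood at 12.3 against 0.218 per 10000, 56.4-fold (95% interval 31.4 to 113) higher, and had no count in endothelial wells below 20 of the other 3 replicates. Col6a6, a collagen chain, stood at 4.34 against 0.0794 and Tnfsf8, the ligand of CD30, at 3.4 against 0.0992. Grem1, a secreted antagonist of bone morphogenetic proteins, had no count in the wells below 20 and was at least 33.8-fold higher against the floor of 3 counts. Lbp, the lipopolysaccharide binding protein that hands its ligand to CD14, stood at 1.64, Rspo3, a Wnt signal enhancer, at 1.73 and Bst1 at 1.54, each with 1 count in the wells below 20. Serpinb9, an inhibitor of granzyme B, and Csf2rb, a shared cytokine receptor chain, stood at 2.03 against 0.0992 and 1.96 against 0.0992.

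By vessel type, the 74 wells were high in venous genes and low in arterial ones. Of 17 venous genes with a level, 14 were at least 2-fold higher and 0 lower than in the wells below 20, with a median log2 ratio of 3.17, and against the other replicates 13 of 17 were higher and 1 lower, with a median of 2.02. Shares of all genes were 8.28% higher and 9.79% lower, and 6.96% and 10.2% against the other replicates. The venous list includes both genes of the rule. Nr2f2, the transcription factor COUP-TFII of venous identity, stood at 5.2 against 1.05, with 2.05, 1.63 and 1.94 in the other replicates. Slc38a5, an amino acid transporter of venous brain endothelium, ran from 0 to 41.5 per well and stood at 16.5 against 0.635. Flrt2 and Ctsc, also venous, stood at 1.79 against 0.199 and 3.9 against 0.337, but at 1.97, 2.64 and 2.54 and 1.44, 1.8 and 2.22 in the other replicates, where Flrt2 was higher than in the 74 wells on each plate. Ephb4 had a ratio of 0.959 and Plat of 0.725.

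Of 16 arterial genes, 15 were at least 2-fold lower, with a median log2 ratio of -4.12, beside 9.79% of all genes. Against the other replicates 13 of 16 were lower, with a median of -2.95, beside 10.2% of all genes. Sema3g, a secreted guidance factor of arterial endothelium, stood at 0.182 against 6.9 and was seen in 17 of 74 wells against 31 of 41. Hey1, a Notch target, stood at 0.0606 against 2.4, the gap junction gene Gja4 at 0.0865 against 4.15 and Gkn3 at 0.0692 against 7.82. Alpl, the phosphatase, was seen in 2 wells against 32. Stmn2, which the rule caps as a neuron gene, is on this list too. Below 20, Gja4 was higher on fed replicate 1 than on the other plates, at 4.15 against 1.21, 1.93 and 0.282.

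Capillary genes depended on the comparison. Within fed replicate 1, 3 of 15 were at least 2-fold higher and 4 lower with a median log2 ratio of 0.04, beside 8.28% and 9.79% of all genes. Against the other 3 replicates 15 of 16 were lower, with a median of -1.83, beside 10.2% of all genes. Mfsd2a, the lipid transporter of capillaries, stood at 0.208 against 0.914, with 3.41, 0.878 and 0.806 on the other plates. Spock2, a matrix proteoglycan, stood at 4.25 against 22.5, with 38.8, 25 and 16.5 there. Car4, which encodes a carbonic anhydrase of the capillary surface, stood at 1.26 against 1.91 and at 11, 8.14 and 5.9. Both groups of fed replicate 1 were low in Car4 beside each other plate.

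Most transporter genes of the blood-brain barrier were within 2-fold of the wells below 20 of the same plate. The glucose transporter Slc2a1 stood at 18.1 against 20.2 per 10000, and at 19.1, 17.9 and 25.5 in the other replicates. The efflux pumps Abcb1a and Abcg2 stood at 11.2 against 9.72 and 6.73 against 4.21. Of 21 transporter genes with a level, 3 were at least 2-fold higher and 3 lower within fed replicate 1, and 1 and 9 against the other replicates. Slc6a6, the taurine transporter, had the lowest ratio, at 8.28 against 37.6. Cldn5, the main tight junction gene and part of the rule, stood at 18.7 against 22.6, Ocln at 2.0 against 1.87 and Tjp1 at 11.6 against 7.91. Of 23 junction and barrier genes, 1 was at least 2-fold higher, Pglyrp1, which encodes a peptidoglycan binding protein. The 3 lower ones were the transcription factor genes Foxf2, Sox17 and Sox18. Of all 5180 genes, 8.28% were higher and 9.79% lower. The transporter and junction counts within fed replicate 1 lay near these shares. Against the other 3 replicates, 9 of 21 transporter genes and 4 of 24 junction genes were lower, beside 10.2% of all genes. In each list 1 gene was higher there, beside 6.96% of all genes.

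**Figure D3:**
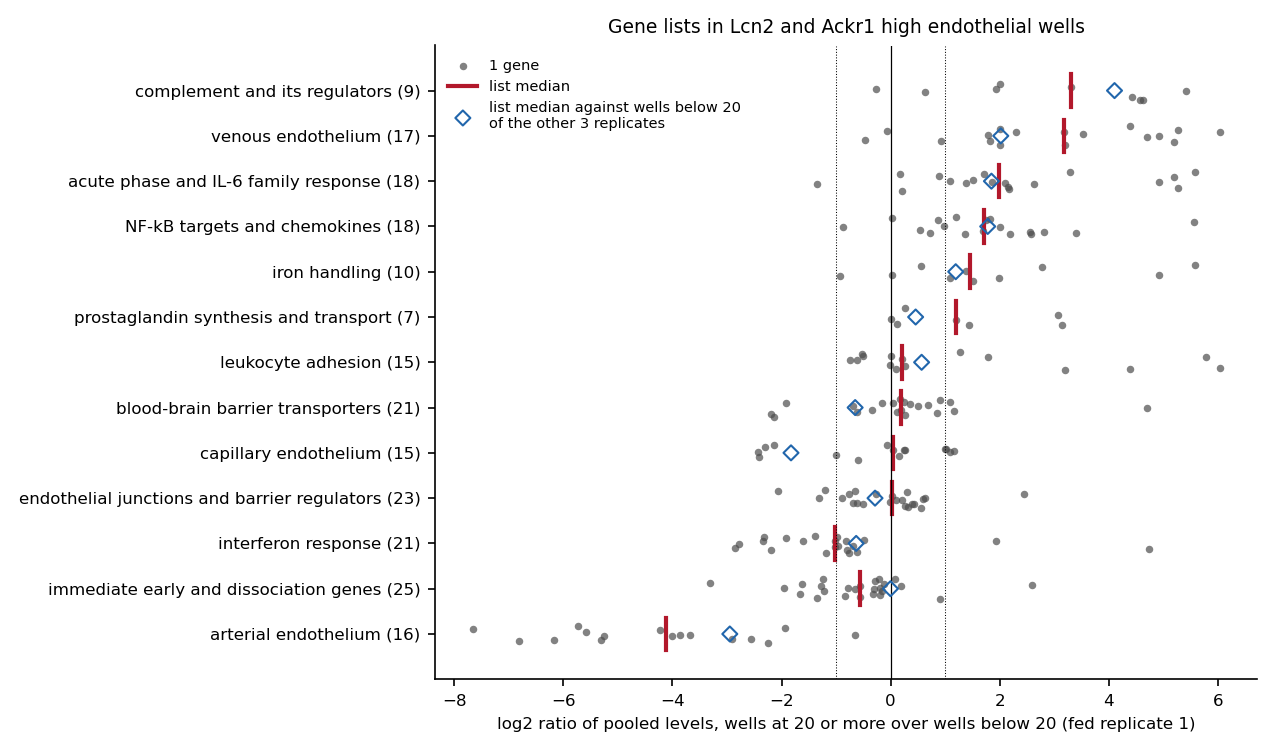
Log2 ratios of pooled levels between the 74 wells at 20 or more and the 41 endothelial wells below 20 of fed replicate 1, with 1 grey point per gene, the list median in red and the number of genes with a level in brackets. Blue diamonds give the list median against wells below 20 of the other 3 replicates, and capillary genes move from a median of 0.04 to -1.83.

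Interferon-induced genes did not follow the NF-kB targets. Of 21 with a level, 2 were at least 2-fold higher and 11 lower within fed replicate 1, with a median log2 ratio of -1.02, and 2 and 3 of 19 against the other replicates, with a median of -0.63. Isg15 and Ifit3, antiviral genes, stood at 0.13 against 0.596 and 0.26 against 1.29. The 2 high ones were Ifitm1, at 6.89 against 0.258, and Ifitm2, at 11.1 against 2.9, which block virus entry. Class I antigen presentation was near the wells below 20, with B2m at 42.6 against 40.3 and H2-K1 at 22 against 17.1, but B2m stood at 19.4, 21.8 and 13.6 in the other replicates, where 10 of 16 antigen presentation genes were at least 2-fold lower than in the 74 wells. Class II genes rested on a few wells, with 57.9% of H2-Eb1 and 45% of Cd74 counts from 1 well each. Immediate early genes, which rise within minutes of stimulation or handling, were lower in 8 of 25 cases and higher in 1 within fed replicate 1, with Fos at 18 against 43.8, and lower in 1 and higher in 3 against the other replicates. Ier3, itself a target of NF-kB, was the higher one within fed replicate 1, at 16.2 against 2.7. Within fed replicate 1, 8.28% of all genes were higher and 9.79% lower. Against the other replicates 6.96% of all genes were higher and 10.2% lower, and the immediate early counts there lay near these shares.

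RNA of other cell types differed between the 2 groups of fed replicate 1, and its part in the ratios was not tested. The 10 pericyte genes summed to between 0 and 121 with a median of 1.32 per 10000 in the 74 wells, and between 0 and 133 with a median of 7.38 in the wells below 20. The 8 smooth muscle genes summed to between 0 and 159 with a median of 1.18 per 10000 in the 74 wells, and between 0 and 211 with a median of 6.38 in the wells below 20. Cnn1 was at 0 in both. The 5 red blood cell genes summed to between 0 and 92.9 with a median of 1.86 per 10000 in the 74 wells, and between 0 and 2539.5 with a median of 2.0 in the wells below 20, and 1 well gave 37.7% of Hbb-bs counts below 20. The 12 neutrophil genes summed to between 0 and 105 with a median of 0 in the 74 wells, and to at most 0.663 in the wells below 20. S100a8 and S100a9 stood at 0.532 and 0.514 with no count below 20, and all of these counts came from 1 well, while Mpo, Elane, Camp, Ngp and Ltf were at 0. Of 12 macrophage genes Tmem119, C1qa and Cd163 were at 0, and the summed median was 0.532. With wells holding 10 or more per 10000 of the pericyte genes Kcnj8, Abcc9, Rgs5 and Vtn left out, 66 of 89 endothelial wells reached 20 and the log2 ratios of Lrg1, Selp and Cfb were 5.48, 5.09 and 4.11.

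The 74 wells varied among themselves. The rule used Lcn2, Ackr1 and Flt1 to pick these wells, and that choice conditions the values for these 3 genes. Across these wells, which share a plate and a depth range, Spearman's rho of Lcn2 was 0.61 with Ackr1 and highest with Lrg1, at 0.84, among 4265 genes seen in at least 50% of the wells. Dcn (0.74), Fth1 (0.73), Ifitm2 (0.73) and C1s1 (0.72) followed. With depth rho was 0.31. The most negative values were those of Flt1, a receptor for VEGF and part of the rule's endothelial sum (-0.72), Spock2 (-0.66) and the anion transporter gene Slc22a8 (-0.63). The genes most like Ackr1 were Lrg1 (0.63), Lcn2, Adh1 (0.60), Tmem176a (0.58) and Fth1 (0.57).

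Levels in the 24 wells lowest and the 24 highest in Lcn2 show the size of this variation. Lcn2, which ordered them, stood at 42.5 and 146 per 10000. Dcn stood at 8.05 and 72.6, Lrg1 at 6.93 and 29.5 and Cxcl1 at 5.52 and 23.3. Dcn and Lrg1 were named as close correlates of Lcn2 in these same wells, so their direction here follows from that choice. The venous transporter Slc38a5 stood at 10.6 and 20.1 and Nr2f2 at 3.7 and 5.54, so both were present at the low end. Some genes ran the other way, chosen after their values were seen, with Spock2 at 8.57 and 1.9, the thyroid hormone transporter gene Slco1c1 at 12.9 and 3.38 and Tfrc at 3.26 and 0.657. Mfsd2a stood at 0.479 and had no count in the 24 highest wells. Slc2a1 and Socs3 stood at 20.6 and 16.5 and at 0.89 and 1.67.

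**Figure D4:**
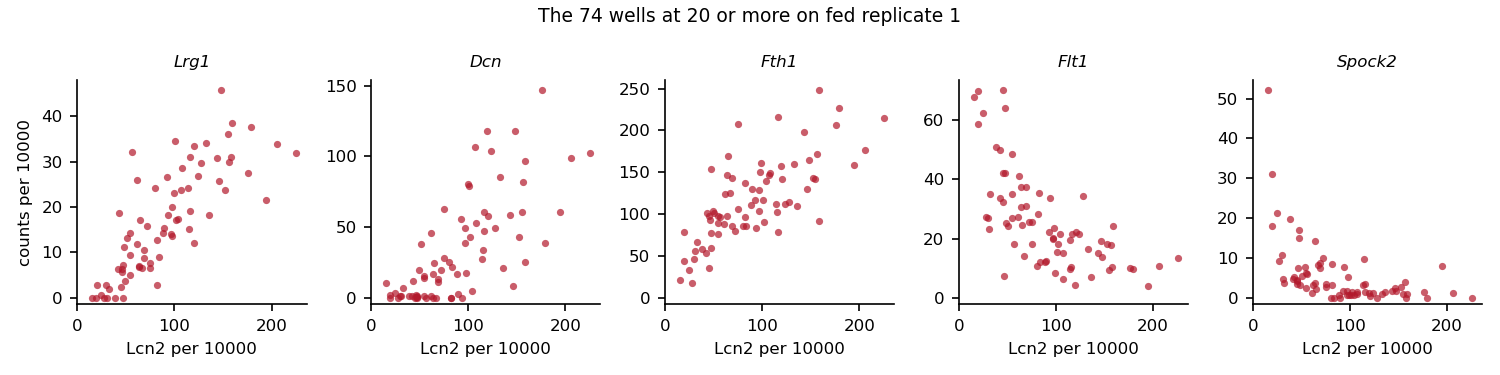
Levels of 5 genes against Lcn2 in each of the 74 wells, in counts per 10000. Lrg1, Dcn and Fth1 climb with Lcn2 (rho 0.84, 0.74 and 0.73) while Flt1 and Spock2 decline (-0.72 and -0.66).

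Low pooled levels of both genes were also found outside the endothelial wells of fed replicate 1. In its 4 other marker classes of 10 or more wells (neuron, tanycyte, fibroblast and remaining wells) Lcn2 stood at 3.09 to 5.31 per 10000 and Ackr1 at 2.1 to 3.2. The 3.18 and 2.8 of endothelial wells below 20 lay within or near these ranges, so counts at that level were not particular to endothelial wells. In the same kind of classes Lcn2 stood at 0 to 0.523 on fed replicate 2, 0.156 to 2.05 on fed replicate 3 and 0 to 0.352 on the fasted replicate. The ratio of Lcn2 to Ackr1 counts on fed replicate 1 was 1.64 (95% interval 1.59 to 1.69) in the 74 wells, 1.14 (0.90 to 1.43) in endothelial wells below 20, 1.66 (1.13 to 2.47) in fibroblast-marker wells, 1.60 (1.27 to 2.03) in remaining wells, 1.41 (1.09 to 1.85) in tanycyte-marker wells and 1.22 (1.11 to 1.35) in the 112 neuron-marker wells, whose median depth was 25357 counts.

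**Figure D5:**
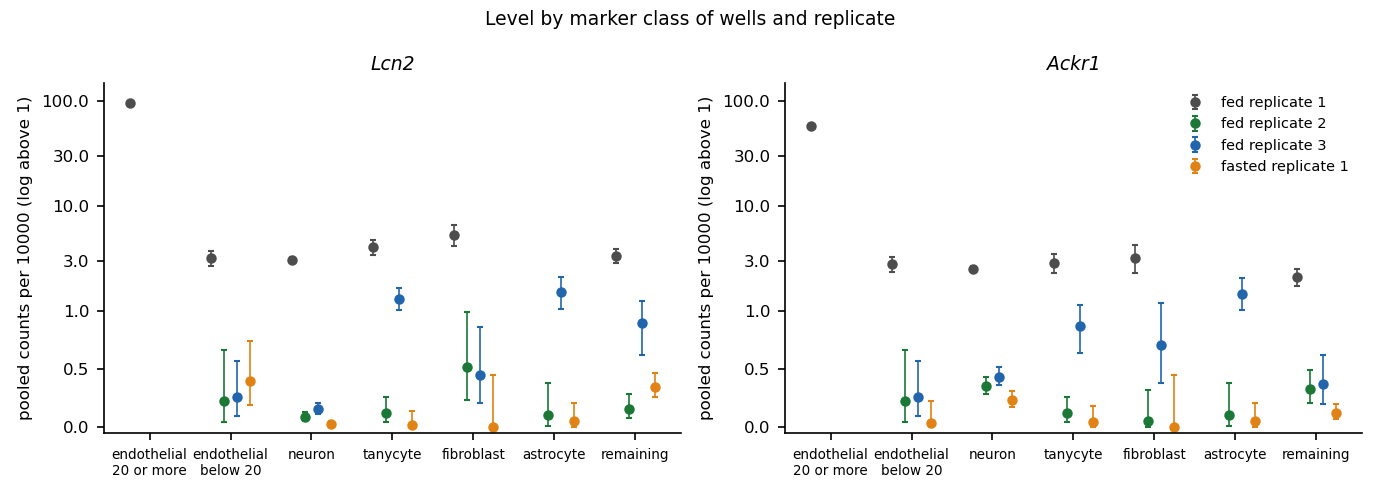
Pooled level of Lcn2 and Ackr1 in classes of at least 10 wells, in counts per 10000 on an axis logarithmic above 1, with exact 95% Poisson intervals and 1 colour per replicate. All classes of fed replicate 1 outside the 74 wells lie at 3.09 to 5.31 for Lcn2 or, for endothelial wells below 20, at 3.18.

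For the fasted against the fed state, counts were summed over all endothelial wells of each replicate, the 76 wells included. edgeR called 19 of 7052 genes (0.269%), 18 higher and 1 lower after fasting, and none of the 5 markers was among them. DESeq2 called 0 of 24013 genes on the same sums, with 176 at an unadjusted p under 0.05, so none of the calls was made by both tools, and the fasted arm is 1 library. Lcn2 stood at 78.5, 0.241 and 0.327 per 10000 in the fed replicates (26.4 ± 45.2, SD, n = 3) and at 0.456 in the fasted one, a log2 difference of -5.86 ± 6.33 (SE, edgeR adjusted p = 0.870). Ackr1 stood at 48.2, 0.241 and 0.56, and at 0.0456 after fasting (edgeR adjusted p = 0.829). The fasted value lay near those of fed replicates 2 and 3, and the high fed mean came from fed replicate 1 alone. Vwf, which every plate held, stood at 29.7, 2.25 and 8.26 fed and 13.3 fasted, with a log2 difference of -0.03 ± 1.89 (SE). Without fed replicate 1 the Vwf difference turned to 1.27 (edgeR adjusted p = 0.114), and edgeR then called 61 genes higher and 11 lower.

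Slc38a5 was also high in a few endothelial wells of other plates. Among the endothelial wells below 20, 5 had Slc38a5 at 10 or more per 10000, 4 on fed replicate 3 and 1 on fed replicate 2, a set picked after its values were seen. Summed, they had Slc38a5 at 14.4, Vwf at 9.67, Il1r1 at 6.15 and Nr2f2 at 3.81. Vwf was seen in 4 of the 5 wells, and Il1r1 and Nr2f2 in 2 each. The rule for wells below 20 fixes low Lcn2 and Ackr1 in them, and Lrg1 and Selp had no count. On fed replicate 1 no well below 20 reached 10 for Slc38a5. A count of 0 for Lrg1 in these 5 wells allows a level of up to 1.08 by its exact Poisson interval, under the 18.2 of the 74 wells. Lrg1 was the closest correlate of Lcn2 in those 74 wells (rho 0.84). Low Lrg1 in wells capped for Lcn2 is therefore not independent of their choice.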

How the data were processed

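CEL-seq2 was run on 4 plates of 384 single wells, 3 fed and 1 fasted. Per the submitters' processing notes, Trim Galore and STAR were used, with mm10 as the genome build. The deposited values are expected counts, which the authors made per gene and well by correcting molecular identifier counts for collisions, as the values themselves show: every distinct value outside spike-ins and mitochondrial genes traced to a whole number of identifiers out of 4096 possible ones within a relative tolerance of 1e-06. The counter and annotation release were not stated. Each table holds 1 plate. Wells of several plates were summed only for comparisons with the other 3 replicates or with all 4 replicates, and for 5 wells high in Slc38a5.

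Wells with at least 1000 counts outside spike-ins and mitochondrial genes were kept, and levels are counts per 10000 such counts, per well or summed over wells. Cells are not replicates, so the 74 wells were set beside other wells without a test, with exact Poisson, binomial or ratio intervals for counting error. Ratios of genes at 0.5 per 10000 or more in either group were called at 2-fold. No doublet caller was run. A group under 3 counts was set to 3 counts in ratios. Genes named are the 5 markers, the 25 highest and 15 lowest ratios among genes at 1 per 10000 and seen in 30% of wells, listed genes, and the closest correlates. Members and lists were chosen with earlier results of these data known. Fasted and fed replicates were compared on rounded sums over endothelial wells with edgeR 4.0.16 (quasi-likelihood test, TMM, low-count filter, Benjamini-Hochberg adjusted p at 0.05), with 1 fasted plate assumed to vary like the fed ones, and with DESeq2 1.42.0 as an alternative. Python 3.11.15, pandas 2.3.3, scipy 1.17.1 and R 4.3.3 were used, and the calculations were tested on simulated data. Nothing states that the plates came from separate animals, so p-values measure only the spread between plates. Median depth of kept wells was 13518, 7613 and 8264 counts on fed replicates 1 to 3 and 9621 on the fasted replicate. Other thresholds, filters, weights and comparison wells were tried.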

Additional observations from a re-analysis of the deposited data

Results flagged for a closer look

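Wells left out for holding under 1000 counts also held Lcn2 on fed replicate 1. Their summed level was 24.4 per 10000 (exact 95% Poisson interval 16.2 to 35.3), from 28 counts in 28 wells, and it was noted because these wells enter no comparison. The same kind of wells stood at 2.91 in 55 wells of fed replicate 2, 1.17 in 46 wells of fed replicate 3 and 0 in 109 wells of the fasted replicate, where no count allows a level of up to 2.40. The part of spread RNA in these counts was not tested.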

How the results depend on the processing

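No paired analysis was possible because the replicate numbers are only names and the fed and fasted groups share a single number. The share of endothelial wells at 20 or more on fed replicate 1 was 74.2% without wells holding pericyte RNA. With no filter on low genes, 1076 genes were at least 2-fold higher and 3450 lower, and the complement median log2 ratio was 2.00. Against endothelial wells below 20 of the other 3 replicates, a comparison chosen after seeing the data, the medians were 4.10 for complement, 2.02 for venous and -2.95 for arterial genes. The venous median was 2.17 with each well weighted alike and 2.14 against wells below 20 of all 4 replicates, and the arterial median was -3.30 at a threshold of 10. Fasted against fed, edgeR called 11 genes higher and 6 lower among all genes with at least 1 count, and 3 lower (22 higher) in endothelial wells below 20 alone. DESeq2 called 0 higher and 0 lower, with 176 of 24013 genes at an unadjusted p under 0.05, against 1484 by edgeR on those genes and 553 of the 7052 that passed its filter. Leaving out 1 fed replicate at a time gave 17 to 61 genes higher and 11 to 18 lower. The log2 difference of Vwf ranged from -0.53 to 1.27 under this, and that of Ptgs2 from -2.09 to 1.60, with the positive values without fed replicate 1. Vwf was at 0.0013 with DESeq2 and 0.89 in wells below 20 alone, where Ptgs2 was at 0.56. The fits without a replicate hold fewer samples, and the cause of the other differences was not tested. Depth limits low genes most in the other replicates, whose endothelial wells below 20 had medians of 3566, 5749 and 7898 counts.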
